A study of Homo sapiens with 18 samples.

Results

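The nuclear-encoded subunits of the mitochondrial respiratory chain and ATP synthase were followed in tumours grown from OCI-Ly18 cells, a human line of diffuse large B-cell lymphoma. Members were all protein-coding entries of the deposited gene table whose symbols begin NDUFA, NDUFB, NDUFC, NDUFS or NDUFV with a number, SDHA to SDHD, UQCR, COX4 to COX8, or ATP5. This gave 88 genes of 58735 in the table, and 81 of them had enough counts to be tested. They were 37 of 37 genes for complex I, 4 of 4 for complex II, 9 of 9 for complex III, 12 of 17 for complex IV and 19 of 21 for complex V. The symbols alone set the complex, so proteins that only assist or regulate a complex are included where they carry its symbol.

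The lymphoma cells carried green fluorescent protein (GFP) and were grown under the skin of NSG mice, an immunodeficient strain that keeps its own myeloid cells. From day 3, animals received vehicle (3 mice, M_766, M_769 and M_770) or tazemetostat at 150 mg/kg daily by gavage (3 mice, M_767, M_768 and M_774) for 14 days. Tazemetostat inhibits EZH2, the histone methyltransferase of the Polycomb repressive complex PRC2. All 6 mice were then infused with CART19 cells, engineered chimeric antigen receptor T cells, and GFP+ tumour cells were sorted from the dissected tumours 11 days later for bulk RNA sequencing. Every group thus shares the line, the host and the CART19 infusion, the comparison has no arm without CART19 here, and the labels do not say whether the drug went on after the infusion. The comparison asked how mRNA levels in the tumour cells differed after the 2 pretreatments.

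The respiratory chain sits in the inner mitochondrial membrane. Complex I takes electrons from NADH and complex II from succinate, ubiquinone carries them to complex III, cytochrome c carries them to complex IV, and oxygen is reduced there. Complexes I, III and IV pump protons, and complex V, the ATP synthase, lets them flow back to make ATP. Most subunits are encoded in the nucleus and imported, a small core is encoded in mitochondrial DNA, and complex II is wholly nuclear. Lymphomas differ in how far they draw on this pathway or on glycolysis.

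Each mouse gave 3 libraries, named A, B and C, whose meaning the labels do not state. Libraries held 16124494 to 26336269 counts. Sums per mouse were 55712115 to 66053406 counts for vehicle and 59132193 to 69816184 for tazemetostat. The B-cell markers MS4A1, CD79A, CD79B, PAX5 and CD22 were all expressed, CD79A at 258.9 to 316.4 CPM (counts-per-million, relative to library totals adjusted by edgeR's TMM factors). Of the T-cell markers, CD3D and CD3G had 0 counts in every mouse and CD3E stayed at or below 0.163 CPM. TRAC (9.12 to 13.38 CPM) and TRBC2 (93.5 to 137.8 CPM) were measured. CD247 was at 34.45, 32.2 and 43.2 CPM in vehicle and 45.9, 53.6 and 48.1 CPM in tazemetostat mice. Its groups did not overlap, with tazemetostat higher, as in 6.58% of all tested genes (log2 fold change 0.43, edgeR adjusted p = 0.465). The 14 T-cell markers summed to 148.5 to 186.9 CPM in the vehicle mice and 152.8 to 188.9 CPM in the tazemetostat mice. The 5 myeloid markers summed to 1.08 to 1.33 and 0.9998 to 1.44 CPM, with FCGR3A at 0. These are human genes counted on a human build, so they do not measure myeloid cells of the mouse host. In bulk RNA, fewer cells of a type and less RNA per cell cannot be told apart.

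Promoter sequence gives one view of what the members share that their symbols do not. Promoters were taken from a RefSeq table (GRCh38.p14, 250 bases before to 50 after the start of a gene), which held 67 of the 88 members. They were searched on both strands for letters known to be bound by factors of respiratory genes: CCGGAAG for the ETS family, to which GABPA belongs, GCGCNTGCG for NRF1, and AANATGGCG for YY1. ETS letters stood in 19 of 67 member promoters (28.4%), against 10.3% of all 35116 promoters in the table and 12.8% of those of protein-coding genes. For NRF1 the count was 20 (29.9%), against 7.47% and 9.53%. YY1 letters were in 17 (25.4%), against 3.19% and 4.24%. At least 1 kind was present in 41 (61.2%), against 18.3% of all promoters, and 2 or more kinds in 14 (20.9%), against 2.5%. These shares describe letters in a window and no binding was measured. The median GC content was 60.3% for member promoters, 58.7% for all and 62.3% for protein-coding genes.

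The kinds were spread unevenly over the complexes. YY1 letters were in 11 of 31 complex I promoters and in 1 of 14 for complex IV and 1 of 12 for complex V. ETS letters were in 4 of 31 for complex I, and in 5 of 14 and 5 of 12 for complexes IV and V. Of the 17 YY1 matches, 14 (82.4%) lay after the start of the gene, where 53.3% of the matches in all promoters lay. The 4 stretches below were chosen because they hold repeated, paired or single matches close to the start. Each reads 5′ to 3′ on the strand of the gene and ends at the base before the RefSeq start, with capitals marking the matched letters on either strand. The first is from SDHA (chr5:218120-218319, plus strand, 4 NRF1 matches), followed by SDHD (chr11:112086753-112086872, plus strand, 2 overlapping NRF1 matches and 1 ETS match), UQCR11 (chr19:1605463-1605582, minus strand, 2 ETS and 2 NRF1 matches) and COX6B1 (chr19:35648203-35648322, plus strand, 1 ETS match).
SDHA: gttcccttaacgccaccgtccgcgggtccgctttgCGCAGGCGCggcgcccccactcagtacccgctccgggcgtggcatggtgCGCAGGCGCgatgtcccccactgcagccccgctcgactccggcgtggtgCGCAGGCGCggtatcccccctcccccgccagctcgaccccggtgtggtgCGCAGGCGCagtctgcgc
SDHD: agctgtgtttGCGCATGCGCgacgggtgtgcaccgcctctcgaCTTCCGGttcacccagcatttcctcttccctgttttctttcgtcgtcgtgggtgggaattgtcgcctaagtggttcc
UQCR11: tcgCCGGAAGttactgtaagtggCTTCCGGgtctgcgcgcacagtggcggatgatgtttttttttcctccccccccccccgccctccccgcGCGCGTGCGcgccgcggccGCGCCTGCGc
COX6B1: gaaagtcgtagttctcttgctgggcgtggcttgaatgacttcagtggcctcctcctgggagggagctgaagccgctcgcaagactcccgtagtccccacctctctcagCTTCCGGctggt

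Before any comparison of the treatments, the members differed between mice of the same group. Summed over all 88 genes, they took 10950, 9346 and 9974 CPM in vehicle mice M_766, M_769 and M_770, and 8997, 10740 and 10110 CPM in tazemetostat mice M_767, M_768 and M_774. M_766 and M_768 were therefore highest, 1 from each group, and M_767 was lowest. The pattern ran through most genes. M_766 was above the mean of the 6 mice for 73 of 81 tested members and M_768 also for 73, while M_767 was above it for 5 and was the lowest mouse for 53. Among all 20301 tested genes the same mice were above the mean for 51.1%, 49.5% and 51.5%.

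A single library accounted for the height of M_768. Its member sum was 14190 CPM in library M_768_C, and 9367 and 9874 CPM in M_768_A and M_768_B. The other 8 libraries of the tazemetostat group ran from 8808 to 10150 CPM. Without that library the sum of M_768 was 9670 CPM, between the 9021 and 10150 CPM of M_767 and M_774. In M_768_C the median member stood 0.66 above its mean over the 18 libraries on the log2 scale, and 76 of 81 members were above that mean. The 3 libraries of M_766 were alike, with medians of 0.22, 0.18 and 0.18, and so were those of M_767, with -0.20, -0.22 and -0.17. Fold changes of the members are therefore given with and without M_768_C.

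**Figure D1:**
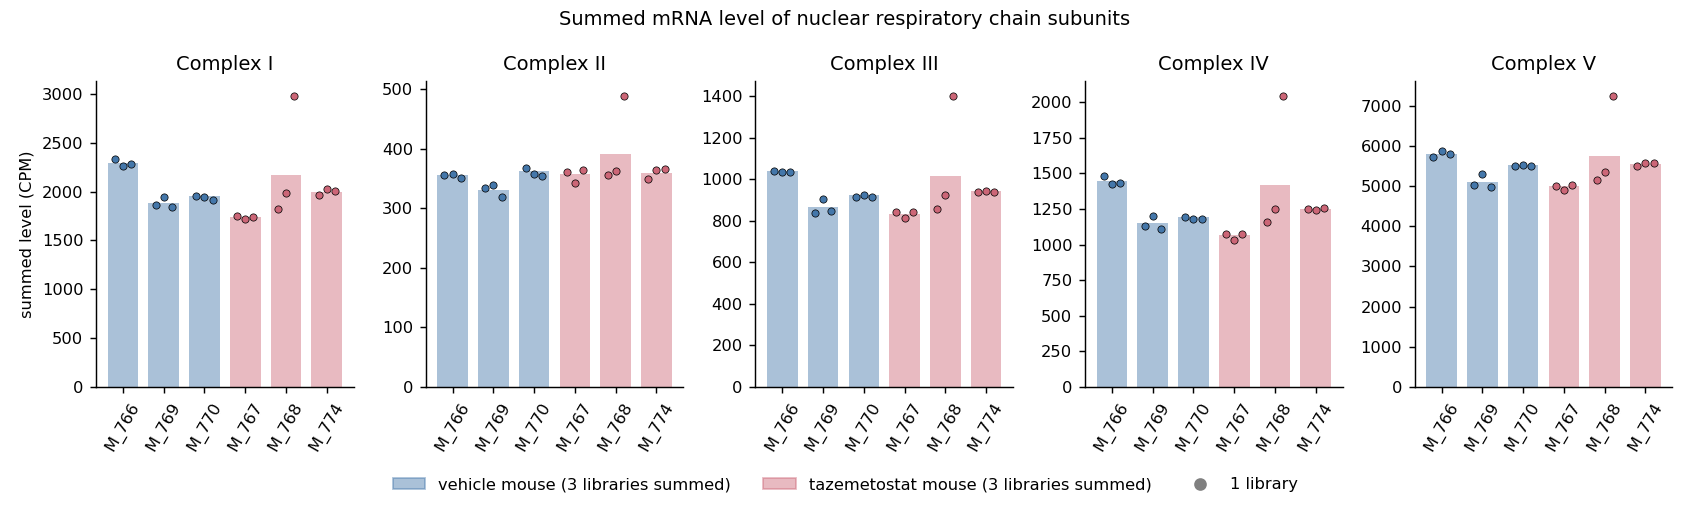
Summed level of the member genes of each complex in CPM (vertical axes from 0), with bars for the 6 mice (blue vehicle, red tazemetostat) and points for the 3 libraries of each mouse in the order A, B, C. Library M_768_C lies above every other library in all 5 panels, and M_766 and M_767 differ from their group mates in all 3 of their libraries for complexes I, III, IV and V.

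**Figure D2:**
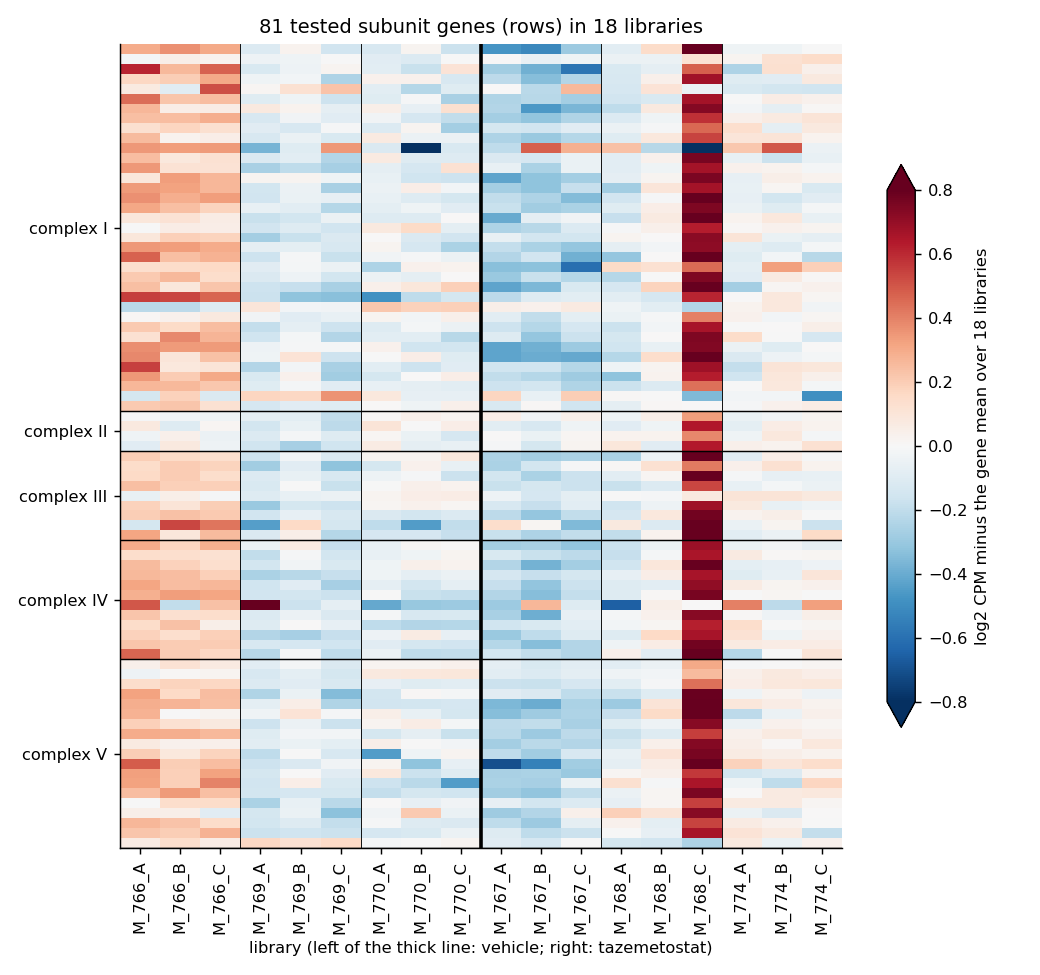
Log2 CPM of the 81 tested members (1 line each, grouped by complex, in order of symbol) minus the mean of the gene over 18 libraries, in red where higher and blue where lower; colours are cut at 0.8 on either side. The 3 columns of M_766 and the column of M_768_C are mostly red, those of M_767 mostly blue, and the lines of complex II are pale in M_766 and M_767.

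Complex II departed from this order. The 4 SDH genes summed to 354.8, 330.4 and 362.6 CPM in the vehicle mice and 356.7, 390.7 and 359.5 CPM in the tazemetostat mice. None of the 4 was above its mean in M_766, and all 4 were lowest in M_769 and highest in M_768. Without M_768_C the sum of M_768 was 361.7 CPM, next to the 357.7 and 361.0 CPM of the other tazemetostat mice.

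Gene length moved with the same libraries. Among all tested genes at 10 CPM or more, those with under 1000 exon bases had a median deviation of 0.58 in M_768_C and those with 8000 or more had -0.29. In M_766 the corresponding values over the mouse were 0.25 and -0.16, and in M_767 -0.18 and 0.09. Members are short, with a median of 2475 exon bases against 5044 for tested protein-coding genes. Members and other genes of like length can be set side by side. Among genes from 4000 to just under 8000 bases, the 13 members stood at 0.68 in M_768_C and 0.24 in M_766. All 4142 genes of that length stood at -0.02 and -0.05. Among shorter genes the gap was smaller. Under 1000 bases, the 9 members stood at 0.81 in M_768_C and 0.27 in M_766, against 0.58 and 0.25 for all genes. From 1000 to just under 2000 bases, the 18 members stood at 0.74 and 0.22, against 0.57 and 0.19 for all genes. In M_767 members of both short classes stood at -0.25, against -0.18 and -0.14 for all genes. The 78 genes for cytosolic ribosomal proteins, a set chosen after the values were seen, stood at 0.67 in M_768_C and 0.34 in M_766. Whether RNA quality or library making gave these differences was not tested.

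**Figure D3:**
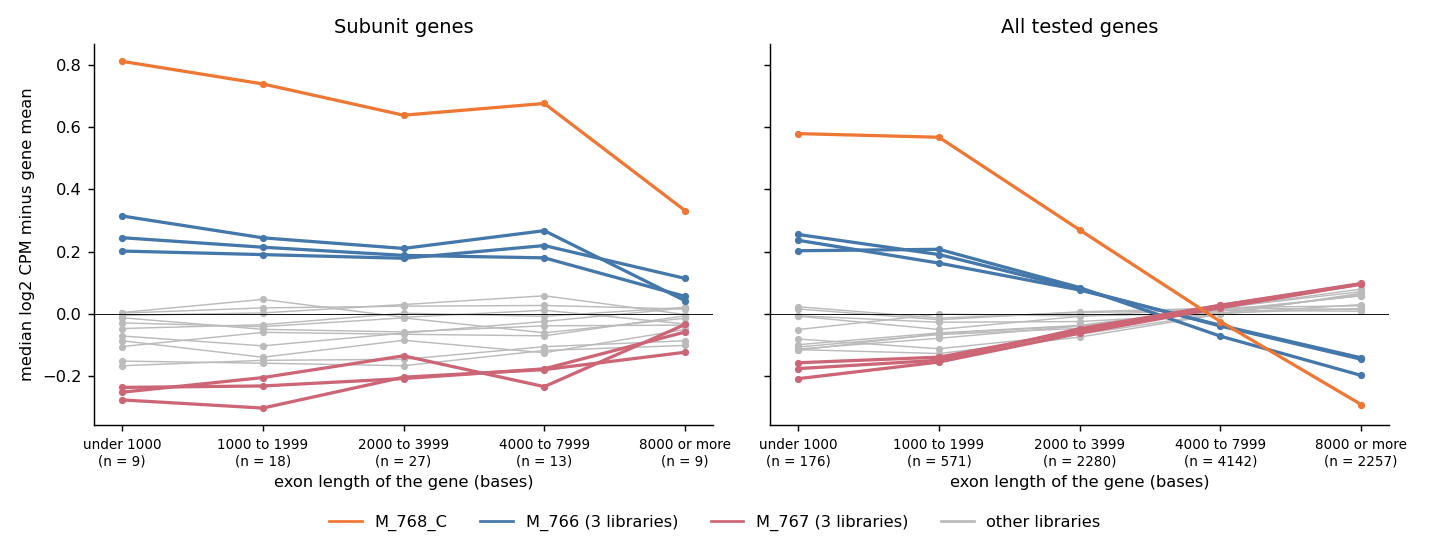
Median log2 CPM minus the gene mean over 18 libraries (vertical axis) by exon length class (horizontal axis, number of genes below each class), for members at 10 CPM or more (left) and all tested genes at 10 CPM or more (right), 1 line per library. Lines of M_768_C and M_766 fall and lines of M_767 rise with length among all genes, and members in the fourth class stay apart from zero in these libraries (0.68 in M_768_C).

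None of the 81 tested members passed the threshold between tazemetostat and vehicle (edgeR quasi-likelihood test, Benjamini-Hochberg over all genes, adjusted p under 0.05), where 0.0345% of all tested genes did. None had an unadjusted p under 0.05 either, against 6.55% of all genes. The smallest adjusted p was 0.838. In 36 members the log2 fold change was positive and in 45 negative, with a median of -0.01, which was also the median of all tested genes. The range ran from -0.26 for NDUFA11 to 0.15 for SDHD. In 1 member, SDHC, the 3 tazemetostat mice lay above the 3 vehicle mice, and in 0 they lay below. Across all genes the groups were separated that way in 6.58% (tazemetostat higher) and 6% (lower).

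With all libraries included, the data bounded the difference for most members. The 95% interval of the log2 fold change lay inside -0.5 to 0.5 for 78 of 81 members (96.3%), against 47.8% of all tested genes, and for 75 of 76 members at 10 CPM or more, against 88.3% of genes at that level. The fold change itself was within 0.1 of zero in 67 members (82.7%), against 41.3% of all tested genes. At 10 CPM or more these shares were 84.2% and 57.8%. The 3 members with wider intervals were COX7A1, NDUFA11 and NDUFA7. A p that misses the threshold does not show that a gene did not change, and these intervals rest on 3 mice per group. They also include library M_768_C, and the shares are not given without it. Without that library the median log2 fold change of the members was -0.08, and -0.12 for complex I, so more members lay away from zero.

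The balance of signs depended on single libraries and mice. Without M_768_C, 10 members were positive and 71 negative, with a median of -0.08, while the median of all genes was -0.01. Still none passed the threshold, where 0.0348% of all genes did, and the smallest adjusted p was 0.62. NDUFS6 and NDUFA3 were then separated with tazemetostat lower (7.01% of all genes were). Without vehicle mouse M_766 the count turned to 70 positive members. The summed level of all members was 10090 ± 810.9 CPM in vehicle mice and 9949 ± 883.2 CPM in tazemetostat mice (SD, n = 3 each), a difference in log2 of -0.02, and 10140 ± 857.6 and 9614 ± 566.5 CPM without M_768_C. Both gaps were smaller than the spread between mice.

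**Figure D4:**
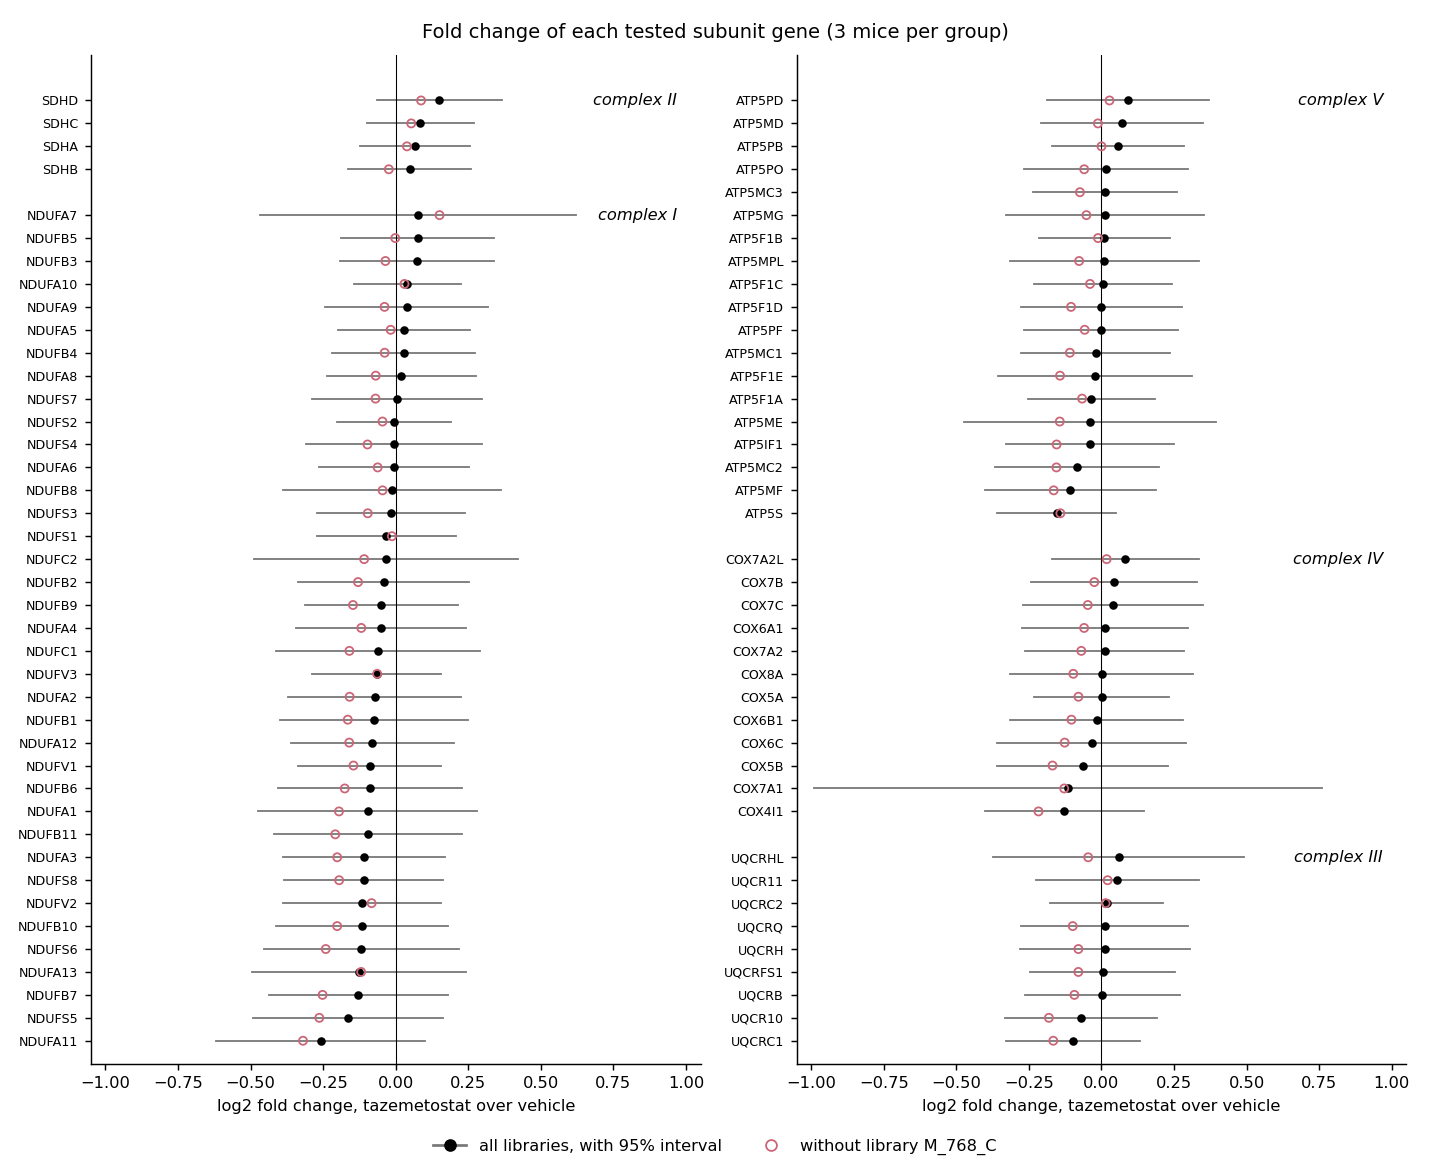
Log2 fold change of each tested member, tazemetostat over vehicle (horizontal axis, 3 mice per group), with its 95% interval as a grey line and the value without library M_768_C as an open red circle, ordered within each complex. All intervals cross zero, and 71 of 81 open circles lie below zero.

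Complex I summed to 2295, 1885 and 1951 CPM in the vehicle mice and 1743, 2170 and 1997 CPM in the tazemetostat mice, so the groups overlapped. Of its 37 genes, 9 had a positive and 28 a negative log2 fold change, with a median of -0.05 (2 and 35, median -0.12, without M_768_C). NDUFV1, which binds the flavin that accepts electrons from NADH, was at 253.7, 204.4 and 204.7 CPM under vehicle and 188.5, 217.8 and 216.9 CPM under tazemetostat (log2 fold change -0.09, 95% interval -0.34 to 0.16, edgeR adjusted p = 0.939, and a log2 fold change of -0.15 without M_768_C). M_766 stood clear on the high side and M_767 on the low side. NDUFS1, the largest iron-sulfur subunit, went the other way between mice, with 92.2 CPM in M_766 against 104.8 and 119.8 in the other vehicle mice, and 107.8, 96.0 and 105.8 CPM under tazemetostat (log2 fold change -0.03, edgeR adjusted p = 0.978, and a log2 fold change of -0.01 without M_768_C). NDUFS1 has 12268 exon bases, and a link of its order to length was not tested. The 9 members of 8000 or more bases at 10 CPM or more had a median deviation of 0.08 in M_766.

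NDUFA11, an accessory subunit of the membrane arm (chr19:5891276-5904006, minus strand), had the largest negative value of all members. Its levels were 29.6, 20.95 and 21.0 CPM under vehicle and 16.3, 22.6 and 21.0 CPM under tazemetostat (log2 fold change -0.26, approximate SE 0.16, edgeR adjusted p = 0.845, and a log2 fold change of -0.32 without M_768_C). High M_766 and low M_767 set this value, and the other 4 mice lay between 20.95 and 22.6 CPM. NDUFS5, a small accessory subunit, repeated that order with 93.3, 72.1 and 69.5 CPM against 57.0, 81.5 and 71.2 CPM (log2 fold change -0.16, edgeR adjusted p = 0.908, and a log2 fold change of -0.26 without M_768_C). NDUFV2, an iron-sulfur subunit beside NDUFV1, was at 12.8, 15.2 and 12.96 CPM against 14.0, 12.2 and 11.6 CPM (log2 fold change -0.12, edgeR adjusted p = 0.927, and a log2 fold change of -0.08 without M_768_C), without the height in M_766. NDUFA4, which carries a complex I symbol but is now placed in complex IV, was at 171.2, 134.8 and 132.5 CPM against 118.1, 155.2 and 150.2 CPM (log2 fold change -0.05, edgeR adjusted p = 0.978, and a log2 fold change of -0.12 without M_768_C), in the order most members had.

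Complex II, succinate dehydrogenase, also works in the citric acid cycle. All 4 of its genes had small positive log2 fold changes, with a median of 0.08 (3 of 4 and a median of 0.05 without M_768_C). SDHC, a membrane anchor (chr1:161314257-161375340, plus strand), was at 80.8, 77.6 and 79.15 CPM under vehicle and 81.1, 88.8 and 81.9 CPM under tazemetostat (log2 fold change 0.08, 95% interval -0.10 to 0.27, edgeR adjusted p = 0.917, and a log2 fold change of 0.05 without M_768_C). The groups did not overlap, but the gap between M_766 and M_767 was under 1 CPM, and without M_768_C these mice stood at 81.48 and 81.35 CPM, so the groups overlapped. SDHD, the other anchor (chr11:112086773-112120013, plus strand), was at 49.98, 44.0 and 50.2 CPM against 49.2, 57.9 and 52.9 CPM and had the largest positive value of all members (log2 fold change 0.15, 95% interval -0.07 to 0.37, edgeR adjusted p = 0.853, and a log2 fold change of 0.09 without M_768_C). M_767 lay inside the vehicle range, and without M_768_C the largest positive value was that of NDUFA7 (0.15). SDHA, the flavoprotein whose promoter holds 4 NRF1 matches, was at 161.6, 151.8 and 168.2 CPM against 167.2, 174.7 and 162.3 CPM (log2 fold change 0.07, edgeR adjusted p = 0.943, and a log2 fold change of 0.04 without M_768_C). SDHB, the iron-sulfur subunit, was at 62.4, 56.9 and 65.1 CPM against 59.2, 69.3 and 62.4 CPM (log2 fold change 0.05, edgeR adjusted p = 0.969, and a log2 fold change of -0.02 without M_768_C). Both overlapped between the groups.

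Complex III summed to 1037, 863.6 and 923.1 CPM in vehicle mice and 833.3, 1016 and 941.1 CPM in tazemetostat mice. Signs were 7 positive and 2 negative, with a median of 0.01, and turned to 2 positive and 7 negative, median -0.08, without M_768_C. UQCRC1, a core protein, was at 242.2, 196.4 and 214.4 CPM against 188.0, 218.7 and 204.0 CPM (log2 fold change -0.10, edgeR adjusted p = 0.928, and a log2 fold change of -0.17 without M_768_C). UQCRFS1, the Rieske iron-sulfur protein, was at 137.1, 106.4 and 124.8 CPM against 111.8, 134.5 and 122.9 CPM (log2 fold change 0.00, 95% interval -0.25 to 0.25, edgeR adjusted p = 0.998, and a log2 fold change of -0.08 without M_768_C). Each group held 1 high mouse and 1 low mouse. The small subunits UQCR10 and UQCR11, the second with 4 matches in its promoter stretch, had log2 fold changes of -0.07 and 0.05, or -0.18 and 0.02 without M_768_C (edgeR adjusted p = 0.964 and 0.976). UQCRH, the hinge protein, was at 185.4, 147.6 and 147.6 CPM against 135.9, 185.9 and 162.7 CPM. UQCRHL, an intronless copy of UQCRH, was at 3.13 to 4.76 CPM in the vehicle and 3.61 to 4.62 CPM in the tazemetostat mice, and reads of the 2 genes may not be told apart.

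Complex IV, cytochrome c oxidase, summed to 1449, 1151 and 1194 CPM in vehicle mice and 1064, 1416 and 1253 CPM in tazemetostat mice. Its 12 tested genes were 7 positive and 5 negative, with a median of 0.00 (1 and 11, median -0.09, without M_768_C). COX4I1, the ubiquitous form of a regulatory subunit, was at 323.4, 262.9 and 270.4 CPM against 223.9, 297.7 and 262.5 CPM (log2 fold change -0.13, 95% interval -0.40 to 0.15, edgeR adjusted p = 0.917, and a log2 fold change of -0.22 without M_768_C). COX5B, which binds zinc, was at 106.4, 87.4 and 94.7 CPM against 76.35, 110.0 and 89.6 CPM (log2 fold change -0.06, edgeR adjusted p = 0.970, and a log2 fold change of -0.17 without M_768_C). M_766 and M_768 were the highest mice for both. COX7A2L, which helps join complexes III and IV into supercomplexes, was at 88.3, 77.2 and 69.2 CPM against 73.8, 90.7 and 83.85 CPM (log2 fold change 0.08, edgeR adjusted p = 0.948, and a log2 fold change of 0.02 without M_768_C). For COX6B1, whose promoter stretch shown above holds 1 ETS match, the log2 fold change was -0.02 (edgeR adjusted p = 0.992), or -0.10 without M_768_C.

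Several complex IV subunits have tissue isoforms, and these cells used the ubiquitous ones. COX4I2, a form known from lung, had 6 counts over all libraries. COX6A2, the heart and muscle form, and COX7B2, known from testis, had 0 counts, which allows up to 3 counts over all libraries by counting error alone. COX6B2 and COX8C, also testis forms, had 16 counts and 1 count. COX7A1, the heart and muscle form, passed the filter at 0.163 to 0.308 CPM and had the widest interval of all members, -0.99 to 0.76. Their counterparts COX6A1 (46.6 to 63.6 CPM), COX6B1 (84.8 to 119.4 CPM), COX7A2 (77.7 to 106.6 CPM), COX7B (47.7 to 64.7 CPM) and COX8A (54.2 to 74.7 CPM) were expressed in all 6 mice, with log2 fold changes from -0.02 to 0.04, or from -0.10 to -0.02 without M_768_C. The other untested members were the readthrough gene ATP5MF-PTCD1 (14 counts) and ATP5MGL (9 counts), a copy of ATP5MG.

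Complex V summed to 5819, 5116 and 5543 CPM in vehicle mice and 5000, 5748 and 5560 CPM in tazemetostat mice, with 9 positive and 10 negative members and a median of 0.00 (2 and 17, median -0.07, without M_768_C). ATP5F1A and ATP5F1B, the alpha and the catalytic beta subunit, held 66.9% of this sum. ATP5F1A (chr18:46080248-46104334, minus strand) was at 2158, 1945 and 2093 CPM against 1917, 2087 and 2046 CPM (log2 fold change -0.03, 95% interval -0.25 to 0.18, edgeR adjusted p = 0.978, and a log2 fold change of -0.07 without M_768_C). ATP5F1B (chr12:56638175-56646068, minus strand) was at 1612, 1489 and 1721 CPM against 1520, 1659 and 1678 CPM (log2 fold change 0.01, 95% interval -0.22 to 0.24, edgeR adjusted p = 0.993, and a log2 fold change of -0.01 without M_768_C). The groups overlapped in both, and the mice differed less than in the smaller subunits. Without these 2 genes the sum was 2049, 1681 and 1729 CPM against 1563, 2001 and 1837 CPM. The mice ranked alike with and without the 2 genes, in the order seen in complexes I, III and IV.

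The c ring of ATP synthase is encoded by 3 genes with the same mature protein. ATP5MC2 was at 403.0, 320.6 and 304.7 CPM against 281.5, 346.5 and 342.3 CPM, ATP5MC3 at 199.9, 183.9 and 195.5 against 164.2, 220.0 and 200.2 CPM, and ATP5MC1 at 182.1, 152.8 and 170.5 against 143.2, 188.6 and 166.6 CPM. Their log2 fold changes were -0.08, 0.01 and -0.02, or -0.16, -0.07 and -0.11 without M_768_C, and M_767 was the lowest mouse for each. ATP5IF1, the inhibitor that stops ATP hydrolysis, was at 67.0, 63.8 and 61.2 CPM against 51.5, 75.9 and 59.4 CPM (log2 fold change -0.04, edgeR adjusted p = 0.979, and a log2 fold change of -0.15 without M_768_C). ATP5S, today named DMAC2L and not a core subunit, had the smallest p of all members with 43.6, 45.5 and 41.3 CPM against 39.1, 36.15 and 41.9 CPM (log2 fold change -0.15, 95% interval -0.36 to 0.05, edgeR adjusted p = 0.838, and a log2 fold change of -0.14 without M_768_C). ATP5MF and ATP5PD, subunits of the membrane part and of the peripheral stalk, had log2 fold changes of -0.11 and 0.09, or -0.16 and 0.03 without M_768_C (edgeR adjusted p = 0.939 and 0.947).

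Levels per kilobase of exon showed how unequal the mRNAs of one complex were. The median was 23.8 CPM per kilobase for the 81 tested members, against 4.44 for tested protein-coding genes. By complex it was 18.4 (I), 18.7 (II), 38.01 (III), 52.4 (IV) and 32.8 (V). The highest members were ATP5F1B at 694.8, ATP5F1A at 187.1, NDUFS5 at 135.2, NDUFB7 at 129.4 and COX8A at 123.1 CPM per kilobase. Lowest were COX7A1 at 0.239, NDUFA7 at 0.926, NDUFA13 at 1.16, UQCRHL at 1.78 and NDUFA9 at 2.06 CPM per kilobase. Among the genes with complex I symbols the levels ran from 0.926 to 135.2 CPM per kilobase.

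Counting may bear on the low end of that range, which was not tested. In GENCODE release 29, whose coordinates the table has, 4 tested members share 25% or more of their exon bases with another gene on the same strand: NDUFA7 (32.3%), NDUFB8 (33.8%), NDUFV2 (28.4%) and COX8A (34.5%). Of these, 3 were under 5 CPM per kilobase, against 8 of the other 77 members. COX8A was among the highest members at 123.1 CPM per kilobase. COX7A1 and UQCRHL, among the lowest, shared 0% on the same strand. NDUFA13 shared 20.97% with AC011448.1. How shared reads were assigned is not given in the sources used here, so these levels are uncertain, and the length is the union of all annotated exons rather than that of the transcript in use. Pseudogenes add to this. The table holds 159 pseudogene entries named after 45 members, and their counts came to 0.530% of all member counts. Large shares were seen for NDUFV2P1 (41.1% of the counts of NDUFV2), SDHAP1 and SDHAP3 (13.17% and 4.997% of those of SDHA) and COX6A1P2 (9.57% of those of COX6A1). The values of these 3 parents are uncertain, and these shares do not bound the error, since the handling of reads that match several places is not stated.

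**Figure D5:**
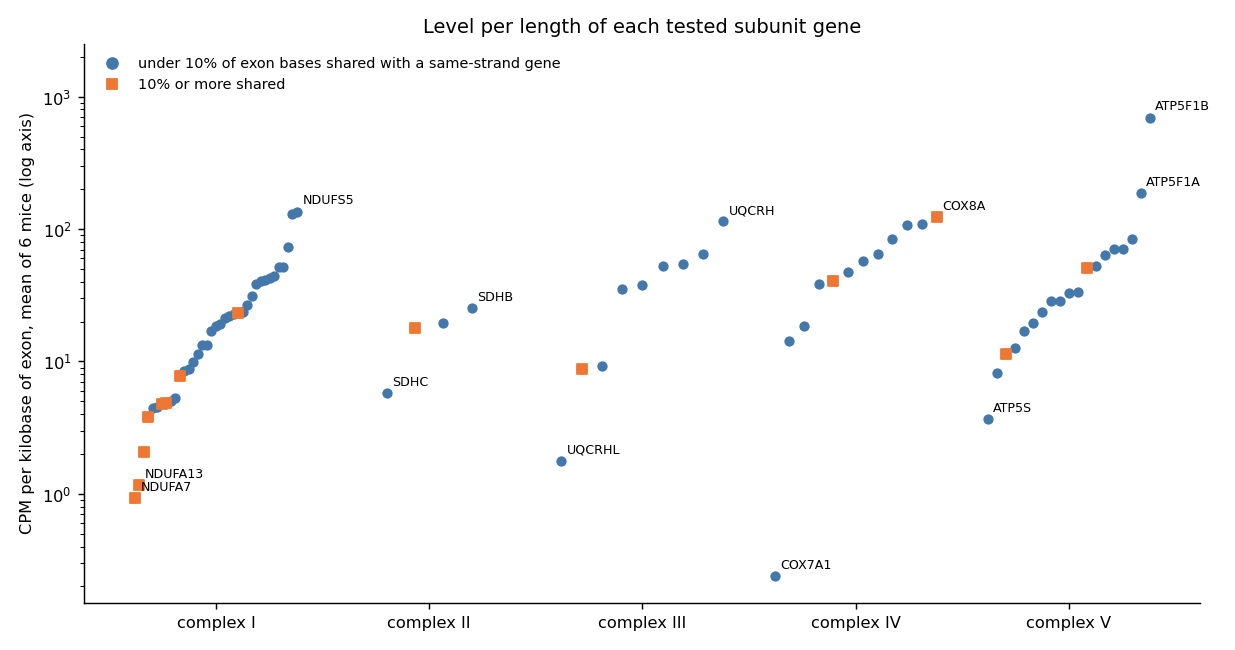
Level of each tested member in CPM per kilobase of exon, mean of 6 mice (log axis), ordered within each complex; orange squares share 10% or more of their exon bases with another gene on the same strand. The 4 lowest complex I members are squares, of which only NDUFA7 shares 25% or more. Squares also stand higher, such as COX8A at 123.1, and ATP5F1B stands highest at 694.8.

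In the genome the members lie on 22 chromosomes, with 12 on chromosome 19. A protein-coding neighbour that starts within 1000 bases on the opposite strand, pointing away, was annotated for 15 of 88 members (17.0%), against 7.38% of 19909 protein-coding genes. The neighbours of NDUFS6 (MRPL36, 34 bases away) and NDUFB5 (MRPL47, 36 bases) encode mitochondrial ribosomal proteins. For SDHA it was CCDC127, 26 bases away, and for UQCRH it was LRRC41, 23 bases away.

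Other genes of the pathway gave no call in any list. The signs and fold changes of these and the later lists include library M_768_C and are not given without it. The 13 subunits encoded in mitochondrial DNA were 9 positive and 4 negative, with a median log2 fold change of 0.04, and summed to 44460, 41150 and 45590 CPM in vehicle and 46620, 43090 and 46340 CPM in tazemetostat mice. By their median they did not follow the nuclear members between mice, with deviations of 0.00 in M_768_C, -0.03 in M_766 and 0.06 in M_767. Single genes differed. MT-ND3 was highest in M_768 and M_766 (871.3 and 836.2 CPM), while MT-ND4L was lowest in these mice (553.9 and 342.8 CPM). MT-ND6, the complex I subunit on the light strand, was at 915.2, 776.9 and 842.1 CPM against 714.0, 719.0 and 702.2 CPM, without overlap (log2 fold change -0.25, edgeR adjusted p = 0.6755). It is the only one of the 13 with an unadjusted p under 0.05, where 6.55% of all tested genes had one. It is also the only one separated with tazemetostat lower, where 6% of all tested genes were. Opposite-strand reads may enter it.

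Assembly factors were of mixed sign. For complex I 6 of 17 were positive and 11 negative, for complex II 1 and 3, for complex III 2 and 4, for complex IV 13 and 8, and for complex V 3 and 0. The smallest p in these lists belonged to NDUFAF6 (log2 fold change -0.18), SDHAF1 (-0.12), UQCC3 (-0.18), COX15 (0.11) and TMEM70 (0.20), and the lowest edgeR adjusted p among them was 0.812. Assembly factors also stood higher in M_768_C, with median deviations of 0.17 to 0.62. Subunits and carriers outside the symbol rule, such as CYC1 and the cytochrome c gene CYCS, were 5 positive and 3 negative, and DHODH had the smallest p (log2 fold change -0.14, edgeR adjusted p = 0.845).

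The 14 regulators of mitochondrial biogenesis were 7 positive and 7 negative, with a median of -0.01 and a deviation of -0.04 in M_768_C. POLRMT, the mitochondrial RNA polymerase, was at 196.4, 189.9 and 209.8 CPM against 176.6, 187.3 and 174.7 CPM, without overlap (log2 fold change -0.15, edgeR adjusted p = 0.835). NRF1, the factor whose letters were searched in the promoters, was also separated, at 31.1, 31.4 and 32.6 CPM against 29.3, 28.7 and 30.6 CPM. Its log2 fold change was -0.10 (edgeR adjusted p = 0.898). POLRMT and NRF1 were the 2 of 14 regulators separated with tazemetostat lower, where 6% of all tested genes were. GABPA and YY1, also named in the promoter search, overlapped between the groups, with log2 fold changes of 0.05 and -0.05. The 16 citric acid cycle enzymes were 10 positive and 6 negative, with IDH3A at 0.28 (edgeR adjusted p = 0.844). In the 16 hypoxia and glycolysis genes 13 were positive and 3 negative, with a median of 0.18. Their median deviation was 0.35 in M_768 and ran from -0.20 to 0.05 in the other mice. DDIT4, induced by hypoxia and other stress, was at 99.6, 103.9 and 110.9 CPM against 124.7, 171.9 and 145.6 CPM, without overlap (log2 fold change 0.49, edgeR adjusted p = 0.360). It was 1 of 4 of the 16 separated with tazemetostat higher, where 6.58% of all tested genes were.

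Genes that respond to tissue dissociation varied with the groups and the mice. Of 18, 16 were positive, with a median log2 fold change of 0.82. An unadjusted p under 0.05 with tazemetostat higher was seen in 11, against 6.55% of all tested genes in either direction. None passed the adjusted threshold (lowest edgeR adjusted p 0.108, ATF3). Their median deviation was -0.73 in M_766, 0.39 in M_767 and 0.45 in M_768. The nuclear subunits were high in M_766 and M_768 and low in M_767, so the lists ran opposite ways in M_766 and M_767. In M_768 the dissociation genes were high in libraries A, B and C (0.38, 0.46 and 0.65), while the subunits were high in C alone. The part of this in the member values was not tested.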

How the data were processed

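Bulk RNA of sorted tumour cells was measured in 18 libraries from 6 mice. The authors deposited whole-number read counts per gene, not normalized, per the file headers and values, beside gene lengths. The submitters' processing notes name the build hg38 and the tool DESeq2. No aligner, counter or strand setting is given in the sources used here. All 58735 genes had the coordinates and exon length of GENCODE release 29.

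The 3 libraries of a mouse were summed, since the mouse received the treatment. These sums entered edgeR 4.0.16 under R 4.3.3 (TMM, filterByExpr with minimum count 10, quasi-likelihood F test, Benjamini-Hochberg over 20301 genes, threshold 0.05). The genes removed held 0.0602% of counts. Levels are CPM with TMM factors. The SE is the log2 fold change divided by the root of F, and 95% intervals use the moderated degrees of freedom. Log2 CPM for deviations used a prior count of 2. Steps were tested on simulated counts. Intervals, like p-values, reflect the spread between these mice, moderated over all genes, and counting error. They cover nothing beyond these mice.

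The members and gene lists were chosen with earlier results of these data known, so lists are described by counts and medians. Members named are the 3 with the smallest p and the highest and lowest per length in each complex, all SDH genes, tissue isoforms, c-ring genes, UQCRH and UQCRHL, NDUFA4, and core or inhibitor subunits (NDUFV1, NDUFS1, UQCRFS1, ATP5F1A, ATP5F1B, ATP5IF1). Of other lists, the gene with the smallest p is named. NDUFS6, NDUFA3, NDUFB5, NDUFB7, NDUFB8, NDUFA9, NDUFA13, NRF1 and some genes outside the members were named after their values were seen. Alternatives were other scaling factors, filters, DESeq2 1.42.0, limma 3.58.1 voom, robust dispersion, an 18-library fit, length offsets, and leaving out library M_768_C or each mouse. One gene of the marker lists is not reported here.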

Additional observations from a re-analysis of the deposited data

Results flagged for a closer look

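In the tazemetostat group, library M_768_C lay far from the other 8 libraries in the summed level of every complex. It held 2984 CPM of complex I members (others 1723 to 2023), 488.9 CPM of complex II (342.5 to 366.2), 1402 CPM of complex III (811.8 to 940.6), 2048 CPM of complex IV (1032 to 1254) and 7265 CPM of complex V (4899 to 5577). Over all members it held 14190 CPM (8808 to 10150). In each case the gap to the nearest library was above Dixon's critical value for 9 libraries. Of 12 sets of 9 libraries examined, 6 were marked this way, all by this library, and the sums share that library. By chance about 1 set in 20 would be marked, a rate that takes libraries as independent, while these 9 came from 3 mice.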

How the results depend on the processing

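No member passed the threshold under any alternative, at an adjusted p of 0.05 or 0.10, and the lowest adjusted p was 0.335 in the fit of 18 libraries. Members with an unadjusted p under 0.05 numbered 1 with no filter on low counts (2199 of all 36794 genes) and 1 in the 18-library fit (1724 of 16333). They numbered 0 in the main fit (1329 of 20301), and 0 to 1 when each mouse was left out (919 to 2311 of all tested genes). Members without overlap between the groups numbered 1, and 0 with upper-quartile scaling, 0 with a minimum count of 50, 0 with length-dependent offsets, 2 with library totals only, 2 without M_768_C, and 2 to 7 when each mouse was left out. As shares these were 1.23% of members with all mice, against 12.6% of all tested genes, and 2.47% to 8.64% with a mouse left out, against 19.8% to 28.1% of all genes. The median of all members stayed between -0.10 and 0.08, within the spread of the mice (SD 0.171), but its sign changed. Positive members numbered 36, and 70 without M_766, 66 without M_767, 10 without M_768, 12 without M_769, 22 without M_770, 31 without M_774 and 17 with upper-quartile scaling, which moved the median of all genes to -0.04. The complex II median stayed positive in all 17 alternatives (0.04 to 0.11). Over all genes, DESeq2 called 124, the 18-library fit 225 and the fit with no filter 252, against 7, none of them members, and the cause was not tested. No paired analysis was possible because the labels give the mice no number that is shared between the groups. With 3 mice per group, differences smaller than the intervals printed could not be resolved.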
